A study of Mus musculus with 15 samples.

Results

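The genes examined here are 7 members of the leukemia inhibitory factor (LIF) and STAT3 signalling pathway: *Lifr*, *Il6st*, *Jak1*, *Stat3*, *Socs3*, *Pim1* and *Gbx2*. They were chosen by name from 22350 protein-coding genes. Each gene span in the GENCODE M1 annotation of mouse genome build mm9 was widened by 50 kb on each side, and the peaks of 2 histone marks were measured in the resulting window. Mouse embryonic stem cells (ESCs) of the J1 line, from strain 129SV, were compared with the expanded potential stem cells (EPSCs) derived from ESCs in 1 of 2 media, named D-EPSCs and L-EPSCs. All 3 states were grown with LIF at 1000 units/ml and with the GSK3 inhibitor CHIR99021 at 3 µM, so no state lacked the cytokine. ESCs were kept in medium with 15% fetal bovine serum and the MEK inhibitor PD0325901 at 1 µM, on fibroblast feeders or gelatin. D-EPSCs were kept in N2B27 with 5% serum replacement (KSR), dimethindene maleate at 2 µM and minocycline hydrochloride at 2 µM. L-EPSCs were kept in 20% KSR with PD0325901 at 1 µM, A-419259 at 0.3 µM, XAV939 at 5 µM, JNK inhibitor VIII at 4 µM and SB203580 at 10 µM. Both EPSCs were feeder-free before harvest, according to the study's methods.

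LIF binds the receptor LIFR, which pairs with the shared signalling chain gp130, the product of *Il6st*. The receptor activates JAK kinases, which phosphorylate STAT3, and STAT3 dimers bind TTCCNGGAA-type sites and raise transcription of target genes. The pathway is best known in mouse ESCs for holding them in self-renewal. H3K27ac, an acetylation of histone H3, is found at active enhancers and promoters, and H3K4me1, a methylation of the same histone, is found at active and inactive enhancers and on either side of promoters.

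Each mark was profiled in 2 samples per state, with 1 input sample per state, 15 samples in all. The values are 6 lists of broad peaks, 1 per state and mark, with positions only, so no value below has a replicate check or a test, and read depth is unknown. In the order ESCs, D-EPSCs, L-EPSCs, the H3K27ac lists span 107.4, 44.4 and 34.3 Mb, and the H3K4me1 lists 221.1, 187.5 and 173.1 Mb. Values given as 3 numbers below follow this order. Since the lists differ this much in length, counts of pathway genes are set beside shares over all genes. Of 5 pluripotency markers, 4 (*Pou5f1*, *Sox2*, *Nanog* and *Zfp42*) had H3K27ac at the start site in every state, and *Esrrb* did not. Of 8 fibroblast markers, 0 had it in any state, although H3K27ac covered 3.15 kb of their gene spans in ESCs and 0 kb in both EPSCs. The part of feeder cells in the ESC values was not tested.

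Matches to the STAT3 consensus are shown first, because the results below return to them. The motif TTCCNGGAA, which is its own reverse complement, occurred 14 times in the 93 regions with H3K27ac in any state that touched a pathway window. *Socs3* held 7 of these matches, *Lifr*, *Il6st* and *Stat3* held 2 each, *Pim1* held 1, and *Jak1* and *Gbx2* held 0. The match nearest the *Socs3* coding transcript lay 53 to 61 bases upstream of the first base of that transcript in GENCODE, and downstream of the RefSeq start. The following 8 matches represent the positions and states discussed below, on the plus strand of mm9 with the motif in capitals.
Lifr, chr15:7065507-7065535: tggggagagaTTCCAGGAAatgaaacaac
Lifr, chr15:7076476-7076504: ccaacagttcTTCCAGGAAgacagcatgc
Il6st, chr13:113226081-113226109: tctatcagggTTCCAGGAAgagttgcttt
Stat3, chr11:100796197-100796225: tgctctggtgTTCCCGGAAactagccctc
Socs3, chr11:117830543-117830571: cgccccccgaTTCCTGGAActgcccggcc
Socs3, chr11:117823927-117823955: gaaattccctTTCCAGGAAgagcggaagc
Socs3, chr11:117784611-117784639: gccagtgggcTTCCAGGAAgggaaggcga
Pim1, chr17:29583388-29583416: tcggagcagaTTCCTGGAAaagacttctg

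All 14 matches lay under H3K27ac in ESCs, 5 did in D-EPSCs and 5 in L-EPSCs. Over the 4414 matches in all H3K27ac regions of the genome, the shares were 91.5%, 37.5% and 30.9% in ESCs, D-EPSCs and L-EPSCs. H3K4me1 lay over 13, 13 and 11 of the 14 in the 3 states, against 77.3%, 70.3% and 70.0% of all matches. The first *Lifr* match, between coding genes and upstream of the start, was under both marks in all 3 states. The second, 3.07 kb upstream, lost the H3K27ac peak in both EPSCs and the H3K4me1 peak in L-EPSCs. The *Stat3* match, in an intron of the gene, was acetylated in ESCs and L-EPSCs. The *Socs3* match upstream of the coding transcript was under H3K27ac in ESCs and D-EPSCs and under no H3K4me1 peak in any state. The match 7.42 kb downstream of the annotated *Socs3* start was under both marks in all states. The *Il6st* match, the distal *Socs3* match and the *Pim1* match, all between coding genes, were acetylated in ESCs only, and all but the *Pim1* match in L-EPSCs kept H3K4me1 in both EPSCs.

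Motif density was also compared with all regions. TTCCNGGAA occurred at 0.0595 matches per kb in the regions of the pathway windows and at 0.0368 per kb in all 70360 H3K27ac regions. The looser core TTCNNNGAA, which includes every TTCCNGGAA match, occurred at 0.399 and 0.325 per kb. TCAAGGTCA, the site of the orphan receptor Esrrb, occurred at 0.0765 and 0.0471 per kb, and the octamer ATGCAAAT, the site of Oct4, at 0.0552 and 0.0531 per kb. These counts were small, with 14 matches of TTCCNGGAA, 94 of TTCNNNGAA, 18 of TCAAGGTCA and 13 of ATGCAAAT, on either strand. Of the 18 TCAAGGTCA matches, 6 lay in a single *Pim1* region, chr17:29575795-29579984, which reaches past the window edge. In the central 300 bp of the regions, 4 of 93 held TTCCNGGAA, against 1.17% of all regions. For TTCNNNGAA, TCAAGGTCA and ATGCAAAT the counts were 12, 2 and 0 of 93, against 9.08%, 1.42% and 1.55%.

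The promoters came from RefSeq (build GRCm38.p6), which holds 250 bases before and 50 after each start. All 7 genes were matched, with 9 promoters since *Lifr* and *Pim1* have 2 each, and each of the 9 had a single exact match on its mm9 chromosome. TTCCNGGAA was in 0 of the 9, against 1.15% of 32851 promoters, and TTCNNNGAA was in 1, against 8.30%. TCAAGGTCA and ATGCAAAT were in 0 of the 9, against 0.423% and 1.74%. Of these, 2 promoters are given because peaks at them bear on the results: that of *Socs3*, with its TTCNNNGAA match in capitals 154 bases before the start, and that of *Il6st*, which lies far from the first base of the GENCODE gene.
Socs3, chr11:117830631-117830930, minus strand: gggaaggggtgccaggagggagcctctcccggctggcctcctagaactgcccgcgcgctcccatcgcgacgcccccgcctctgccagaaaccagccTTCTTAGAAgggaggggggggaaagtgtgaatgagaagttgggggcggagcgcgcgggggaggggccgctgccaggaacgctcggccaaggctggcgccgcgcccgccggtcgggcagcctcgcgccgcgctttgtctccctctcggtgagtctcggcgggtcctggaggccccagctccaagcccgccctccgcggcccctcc
Il6st, chr13:113254028-113254327, plus strand: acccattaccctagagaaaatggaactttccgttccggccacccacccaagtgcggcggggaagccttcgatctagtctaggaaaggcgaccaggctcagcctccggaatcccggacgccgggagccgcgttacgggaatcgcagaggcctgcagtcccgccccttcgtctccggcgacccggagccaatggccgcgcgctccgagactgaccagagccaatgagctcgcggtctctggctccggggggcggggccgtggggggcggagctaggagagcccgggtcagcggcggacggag
The *Socs3* promoter was 73.3% G and C with 31 CpG dinucleotides, and that of *Il6st* was 68.3% with 33.

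The first comparison asked how much of each window carried H3K27ac in the 3 states. H3K27ac coverage was at least 2-fold lower than in ESCs at 6 of the 7 genes in D-EPSCs, and at the same 6 in L-EPSCs, with *Gbx2* the exception in both. Over all gene windows with at least 1 kb of peak in a state, 62.9% were at least 2-fold lower in D-EPSCs and 80.9% in L-EPSCs, so most of the windows that were read met the same criterion. The lists come from bulk cells, in which a mark present in fewer cells and a weaker mark in every cell cannot be told apart. No pathway gene was at least 2-fold higher, against 4.30% and 1.73% of all windows. The median ratio over ESCs was 0.291 for the 7 genes and 0.404 for all windows in D-EPSCs, and 0.302 and 0.264 in L-EPSCs. The bars of covered kb by gene show this drop for H3K27ac beside the smaller one for H3K4me1.

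**Figure D1:**
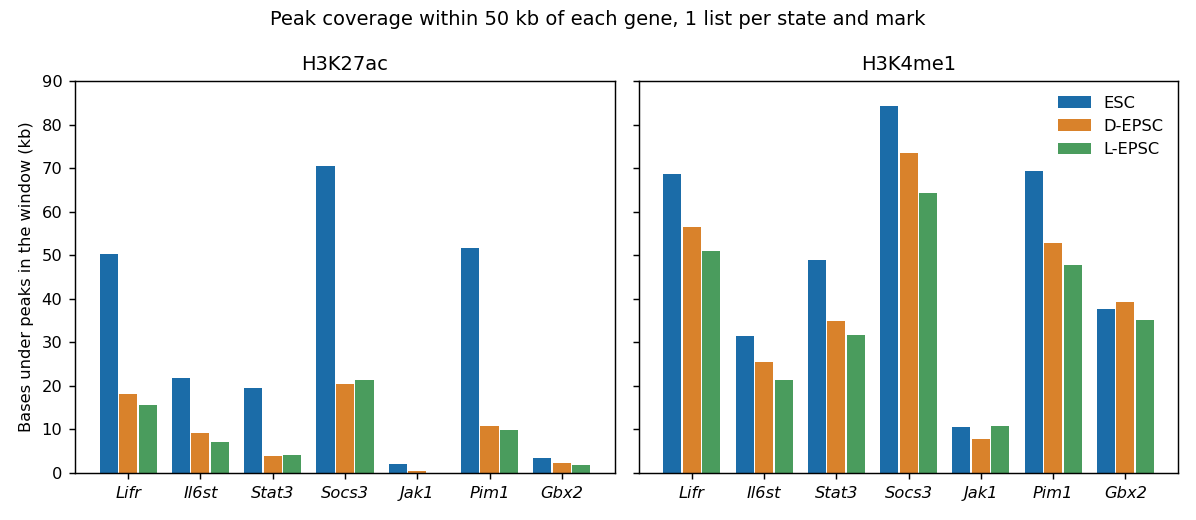
Bases under peaks (kb) in the window of each gene, which is its span with 50 kb on either side, for H3K27ac (left) and H3K4me1 (right); each bar is 1 peak list, without error. The H3K27ac bars of ESCs (blue) reach 70.4 kb at *Socs3* and exceed those of D-EPSCs (orange) and L-EPSCs (green) at all 7 genes, while *Jak1* has 0 kb in L-EPSCs.

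Among the receptor genes, *Lifr* (ENSMUSG00000054263.5, chr15:7079559-7147489, plus strand) encodes the LIF-binding chain. H3K27ac covered 50.2, 18.1 and 15.6 kb of its 167.9 kb window in ESCs, D-EPSCs and L-EPSCs. Peaks numbered 22, 8 and 6 in the same order, and the widest was 14881, 12525 and 9384 bp. The mean width per peak was 2476, 2264 and 2599 bp, so the lists differed here in the number of peaks more than in their mean width. The widest peak belonged to a region of 15317 bp, chr15:7057082-7072398, centred 14.8 kb upstream of the start and outside coding genes, which had 14881, 13530 and 9862 bp under peaks. This region holds the first *Lifr* match printed above. The peak at the start itself was 4524, 1448 and 1263 bp in ESCs, D-EPSCs and L-EPSCs. The acetylated regions of at least 2 kb in ESCs only were 3 at *Lifr*. Besides one of 11055 bp at the far upstream edge of the window, they were chr15:7038669-7040800, outside coding genes, and chr15:7093885-7096717, within *Lifr*. The latter kept H3K4me1 over 2833 bp (D-EPSCs) and 2798 bp (L-EPSCs), which is all or nearly all of its 2833 bp.

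*Il6st* (ENSMUSG00000021756.5, chr13:113265216-113297068, plus strand) encodes gp130. H3K27ac covered 21.8, 9.10 and 7.15 kb in ESCs, D-EPSCs and L-EPSCs, from 15, 4 and 4 peaks. Its widest region, of 6815 bp at chr13:113251117-113257931, was acetylated over 6635, 4327 and 3458 bp. The RefSeq start of *Il6st* lies inside this region, 10938 bp upstream of the first base of the GENCODE gene, so the region is a distal one by GENCODE and the promoter by RefSeq. Within 1 kb of the RefSeq start, H3K27ac covered 2001, 1525 and 1356 bp in the 3 states. At the first base of the GENCODE gene the nearest H3K27ac peak was 3951, 7285 and 10583 bp away.

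*Jak1* (ENSMUSG00000028530.8, chr4:100824972-100937887, minus strand) encodes a kinase bound to gp130. It carried little acetylation in any state, with 2.03, 0.471 and 0 kb in ESCs, D-EPSCs and L-EPSCs in the largest window of the set, 212.9 kb. At its start the peak covered 553 bp within 1 kb in ESCs and 247 bp in D-EPSCs, and none was listed in L-EPSCs.

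*Stat3* (ENSMUSG00000004040.10, chr11:100746412-100800854, minus strand) encodes the transcription factor of the pathway. Its window held 19.5, 3.88 and 4.09 kb of H3K27ac. The ratio of D-EPSCs over ESCs, 0.199, was the lowest of the 7 genes. The promoter peak was nearly as wide in the EPSCs as in ESCs, with 3026, 2779 and 2540 bp in ESCs, D-EPSCs and L-EPSCs. Further into the gene, peaks of ESCs were narrower or absent in the EPSCs. One region there, chr11:100790991-100793211, had 2221 bp of H3K27ac in ESCs and none in either EPSC, yet H3K4me1 covered 2221, 2221 and 1407 bp of it in the 3 states. The window also holds *Stat5a*, *Stat5b* and *Ptrf*, whose peaks are counted in it.

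Among the target genes, *Socs3* (ENSMUSG00000053113.3, chr11:117827393-117831361, minus strand) encodes the feedback inhibitor of JAK signalling. It had the most acetylation of the set, 70.4 kb or 67.7% of its window in ESCs, against a median of 3.82% over all windows. In D-EPSCs the value was 20.5 kb and in L-EPSCs 21.3 kb, which gives ratios of 0.291 and 0.302. The number of peaks changed less than their width, with 16, 11 and 12 peaks of 4419, 1861 and 1774 bp on average. Upstream, 2 regions over *Pgs1* narrowed most in absolute terms. The wider, chr11:117865911-117881656, fell from 15746 bp under peaks to 3882 bp (D-EPSCs) and 5767 bp (L-EPSCs), and chr11:117852496-117863951 fell from 11456 bp to 364 and 1347 bp. H3K4me1 still covered 7501 and 7287 bp of the second in D-EPSCs and L-EPSCs, after 11339 bp in ESCs. A region of 5850 bp downstream, chr11:117780114-117785963, was acetylated in ESCs only and holds the distal *Socs3* match printed above. By contrast chr11:117791213-117798530 kept 7318, 4318 and 5635 bp.

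*Pim1* (ENSMUSG00000024014.6, chr17:29627757-29632390, plus strand) encodes a serine/threonine kinase induced by STAT3. H3K27ac covered 51.6, 10.8 and 9.76 kb in the 3 states, ratios of 0.210 and 0.189. Upstream of the gene, chr17:29604663-29616702 carried 11886 bp of H3K27ac in ESCs and only 674 and 396 bp in the EPSCs, although H3K4me1 covered 11785, 9518 and 7607 bp. Regions of at least 2 kb in ESCs only were 3 at *Pim1*, of 4190, 4996 and 2006 bp, at chr17:29575795-29579984, chr17:29580995-29585990 and chr17:29633867-29635872. The second of them holds the *Pim1* match printed above. At the start of the gene the order was different. Within 1 kb of it H3K27ac covered 401, 2001 and 529 bp, and the first base was under a peak in D-EPSCs alone.

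*Gbx2* (ENSMUSG00000034486.7, chr1:91824537-91829865, minus strand) encodes a homeobox factor that is a target of STAT3 in ESCs. Its window held 3.34, 2.26 and 1.88 kb of H3K27ac, and its ratios of 0.676 and 0.563 were the highest of the set. Its widest region, chr1:91771790-91776585, lay within *Agap1* and was acetylated over 4756, 2753 and 4105 bp. A peak within 1 kb of its RefSeq start was listed in D-EPSCs only, over 699 bp. The same peak lay within 1 kb of the GENCODE start of *D130058E05Rik*, a coding gene that it also overlaps.

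D-EPSCs and L-EPSCs were also compared with each other. None of the 6 genes with at least 1 kb of H3K27ac in a state differed by 2-fold, against 31.2% of all windows lower in L-EPSCs and 4.59% higher. Ratios of L-EPSCs over D-EPSCs at the 6 genes ranged from 0.786 at *Il6st* to 1.05 at *Stat3*, with a median of 0.881 against 0.678 over all windows. When narrow peaks were removed from the longer lists of a mark until all 3 covered equally many bases, the H3K27ac comparisons with ESCs changed. Over all windows the direction then turned, with 15.1% at least 2-fold lower and 58.3% higher in D-EPSCs, and 15.3% lower and 55.7% higher in L-EPSCs. Of the pathway genes with at least 1 kb, 2 of 5 in D-EPSCs and 2 of 6 in L-EPSCs were lower. These were *Socs3* and *Pim1*, with ratios of 0.354 and 0.332 in D-EPSCs and 0.403 and 0.346 in L-EPSCs. *Lifr* was at 0.559 and 0.578 and *Il6st* at 0.712 and 0.602. At *Stat3* the shortened ESC list had 0 kb, against 2.78 kb (D-EPSCs) and 4.09 kb (L-EPSCs), so its direction turned and it counted as higher in both. *Gbx2*, with 0 kb, 0.623 kb and 1.88 kb, counted as higher in L-EPSCs than in ESCs and in D-EPSCs, the latter against 15.2% of all windows. The median ratio of L-EPSCs over D-EPSCs was then 1.09, against 0.925 over all windows. For H3K4me1 the same alternative gave 1 gene, *Jak1*, at least 2-fold higher in each EPSC, against 20.6% (D-EPSCs) and 24.5% (L-EPSCs) of all windows. For H3K27ac that alternative keeps the 3725 widest peaks of ESCs against 13675 and 26966 in the EPSCs. For H3K4me1 it keeps 44749 against 71963 and 105306. For both marks it drops more peaks from the ESC list than from those of the EPSCs.

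**Figure D2:**
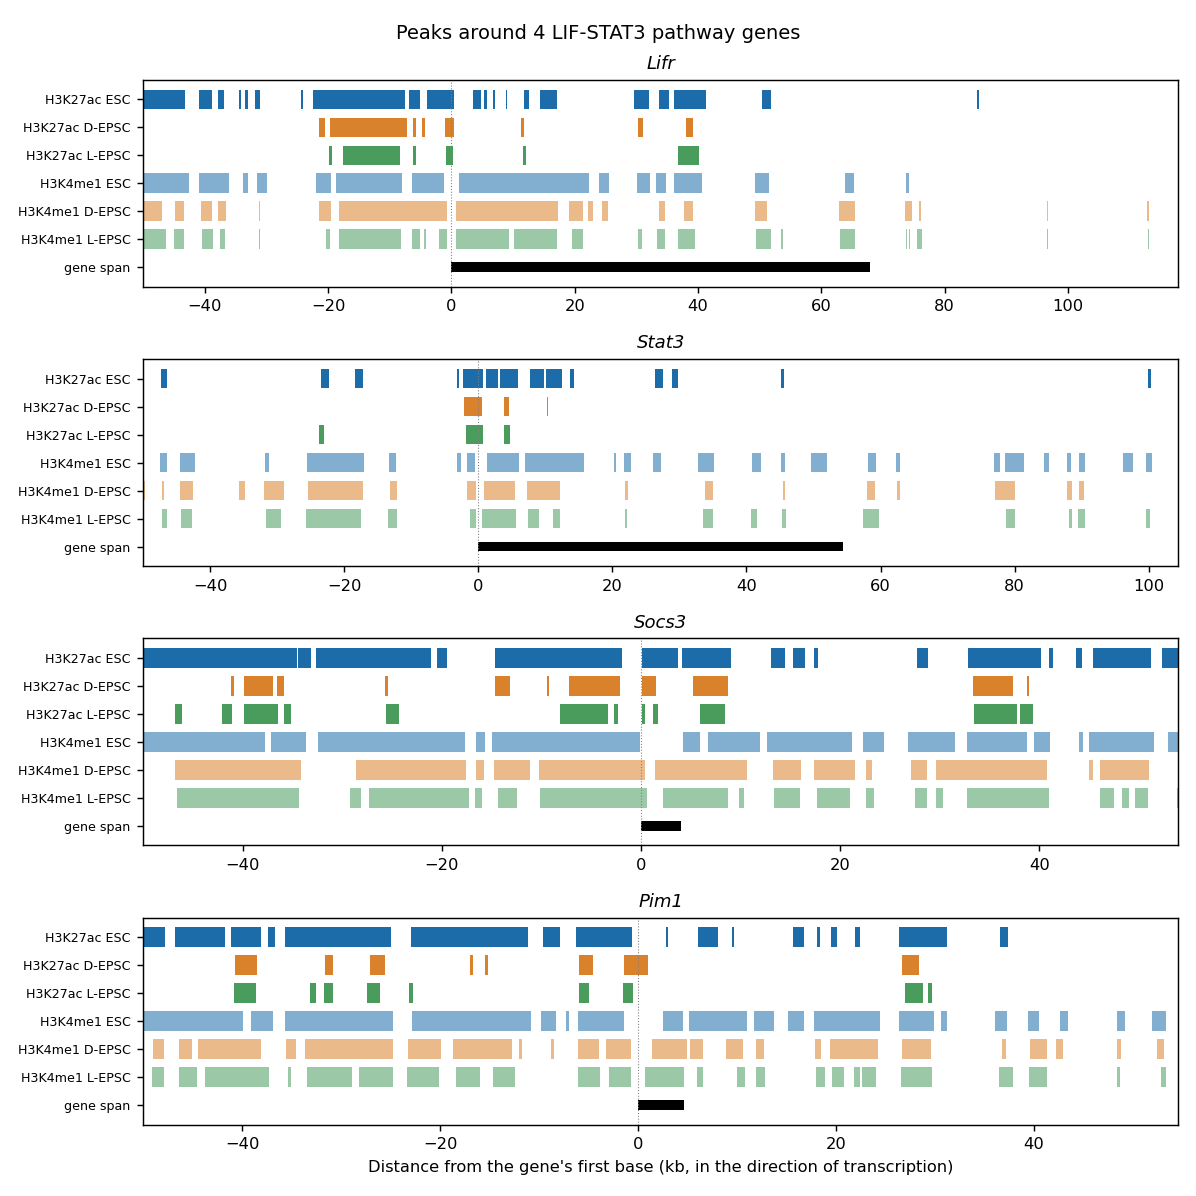
Peaks of both marks in the windows of *Lifr*, *Stat3*, *Socs3* and *Pim1* against distance from the first base of the GENCODE gene (kb, in the direction of transcription); each row is 1 list (ESC blue, D-EPSC orange, L-EPSC green, H3K4me1 paler) and the black bar is the gene. H3K27ac rows are dense in ESCs and sparse in both EPSCs, while the H3K4me1 rows still cover 73.6 kb (D-EPSCs) and 64.3 kb (L-EPSCs) at *Socs3*.

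The next comparison asked the same of H3K4me1. None of the 7 genes was 2-fold lower or higher in D-EPSCs, where 3.30% and 7.72% of all windows were, nor in L-EPSCs, where 6.57% and 8.68% were. Between the EPSCs, 0 of 7 were called, against 1.88% lower and 3.07% higher in L-EPSCs. The median ratio over ESCs was 0.806 (D-EPSCs) and 0.743 (L-EPSCs), against 0.907 and 0.800 over all windows. *Socs3* had 84.2, 73.6 and 64.3 kb in ESCs, D-EPSCs and L-EPSCs. *Pim1* had 69.3, 52.7 and 47.8 kb, and *Lifr* had 68.6, 56.6 and 51.0 kb. *Stat3* had 48.9, 34.8 and 31.7 kb, and its ratios of 0.711 and 0.648 were the lowest of the set. *Il6st* had 31.5, 25.4 and 21.4 kb. Only *Gbx2* and *Jak1* did not decrease in both EPSCs. *Gbx2* had 37.6, 39.3 and 35.2 kb of H3K4me1, more than 10 times its H3K27ac in every state, and *Jak1* had 10.5, 7.89 and 10.9 kb. At these 2 of the 7 genes the EPSCs lay on opposite sides of ESCs, against 18.0% of all windows, and this was so under 4 of 8 other settings at *Jak1* and 6 of 8 at *Gbx2*.

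**Figure D3:**
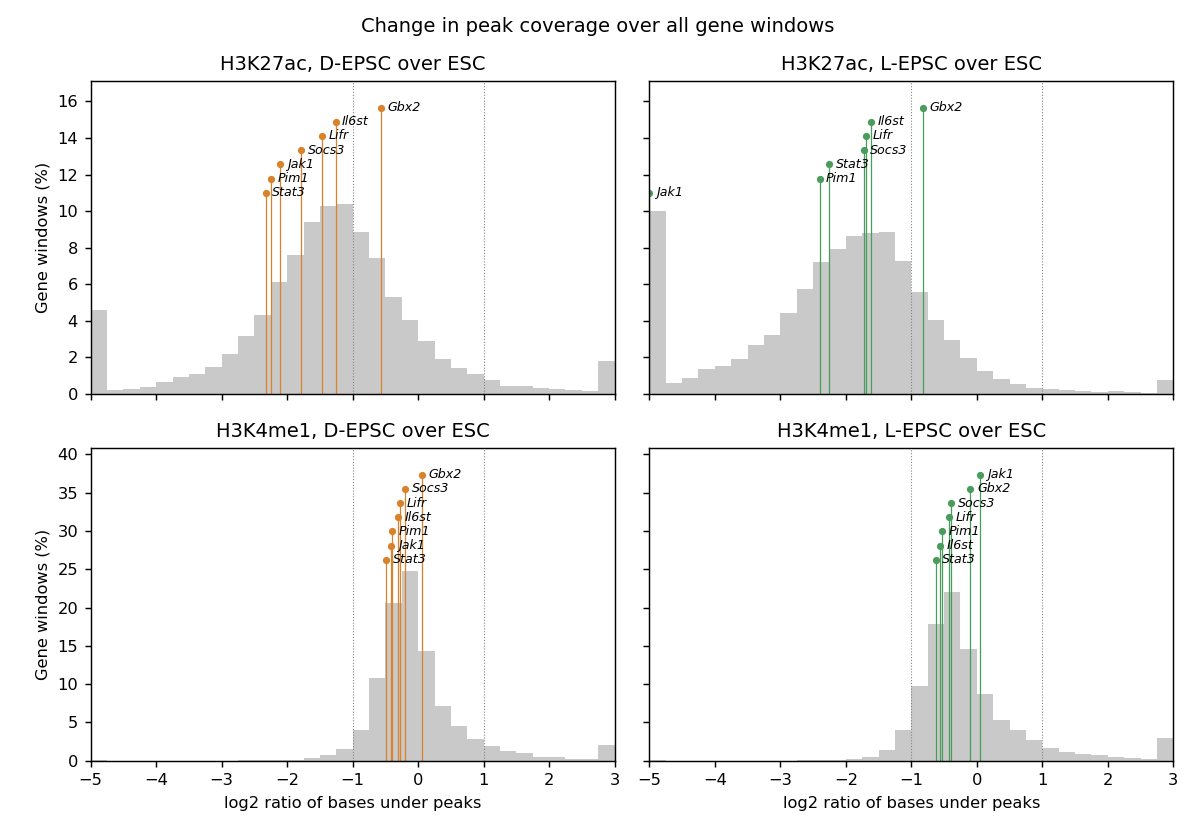
Share of all gene windows (%) by log2 ratio of bases under peaks over ESCs, for each mark and EPSC, with the 7 genes marked by lines and dotted lines at 2-fold; the end bins also hold all smaller or larger ratios, including windows at 0 in 1 state. The genes lie inside the bulk of all windows in each panel, except *Jak1* for H3K27ac in L-EPSCs. There *Jak1* is drawn at the left edge because it has 0 kb.

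Promoter and distal peaks were then taken apart. At the first base of the GENCODE gene, widened by 1 kb, H3K27ac was present at 5, 5 and 4 genes, against 35.7%, 35.3% and 28.8% of all genes. *Lifr*, *Stat3*, *Socs3* and *Pim1* had it in every state, *Jak1* in ESCs and D-EPSCs, and *Il6st* and *Gbx2* in none. H3K4me1 was present at 5, 7 and 7 genes, against 57.5%, 67.1% and 68.0%. By the 9 RefSeq starts, a choice made after the data were seen, 8, 8 and 6 had H3K27ac, against 31.7%, 29.5% and 24.4% of the 30617 RefSeq starts placed on mm9. *Il6st* had it in every state by this annotation.

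By RefSeq starts, H3K4me1 came closer to most starts in the EPSCs. The nearest H3K4me1 peak was nearer to the RefSeq start in both EPSCs than in ESCs at 8 of the 9 starts, and at 60.7% of all RefSeq starts. At *Lifr* it was 1143, 741 and 680 bp away, and at *Pim1* 1414, 675 and 690 bp, both at the upstream of their 2 starts. At *Il6st* the distances were 831, 452 and 289 bp, and at *Socs3* 747, 294 and 131 bp. *Gbx2* had 530, 356 and 262 bp, *Jak1* 490, 365 and 354 bp, and *Stat3* 464, 273 and 323 bp. The exception was the downstream start of *Lifr*, which lay under H3K4me1 in all 3 states. With GENCODE first bases, the nearest H3K4me1 peak was 0, 0 and 89 bp away at *Il6st* and 0 bp in every state at *Gbx2*. At *Lifr*, *Stat3*, *Socs3*, *Jak1* and *Pim1* the nearest peak was closer in both EPSCs by this annotation too.

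**Figure D4:**
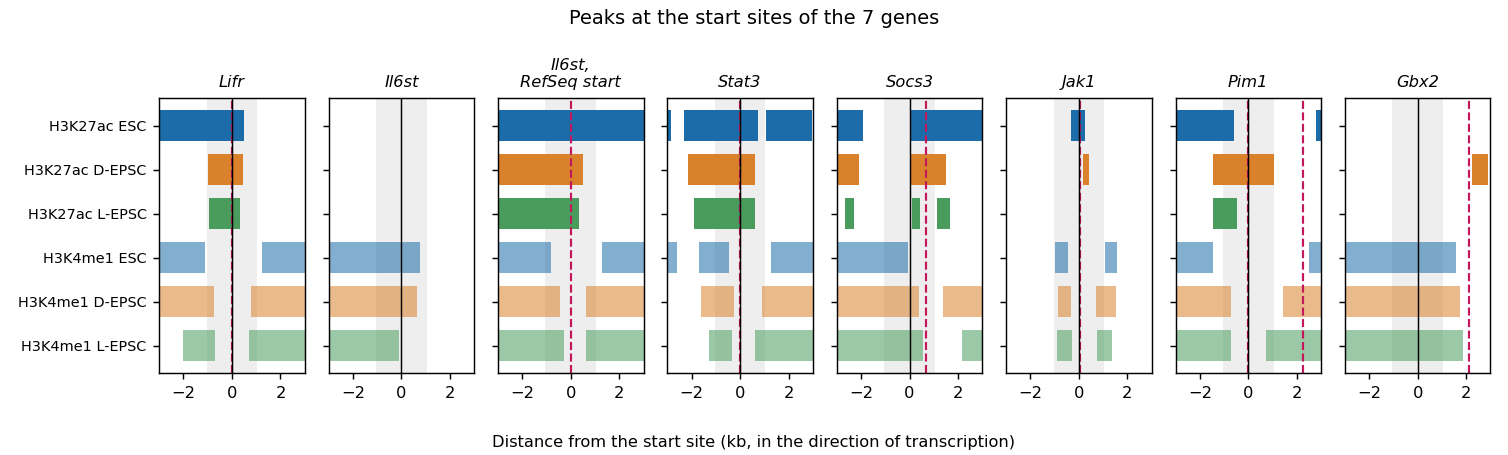
Peaks within 3 kb of the start sites in the 6 lists (ESC blue, D-EPSC orange, L-EPSC green, H3K4me1 paler), against distance from the start (kb, in the direction of transcription); the black line is the first base of the GENCODE gene, red dashed lines are RefSeq starts and the grey band is 1 kb either side. *Il6st* has no H3K27ac at the GENCODE position and has it in every state at the RefSeq start 10938 bp upstream, and the gap between H3K4me1 peaks around the *Lifr* start is narrower in the EPSCs.

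Peaks at the genes' own starts were compared with distal peaks. By GENCODE starts, own promoter peaks summed to 17.3, 8.41 and 5.14 kb in the 3 states, ratios of 0.485 and 0.297. Distal peaks summed to 196.7, 54.3 and 52.4 kb, ratios of 0.276 and 0.266. With these GENCODE starts, *Stat3* decided the order in L-EPSCs, with a ratio of 0.839 at its start and 0.0943 at distal peaks. Without it, a choice made after the data were seen, the ratios at starts were 0.394 (D-EPSCs) and 0.182 (L-EPSCs), against 0.295 and 0.282 at distal peaks. The genes went different ways: at *Lifr* the start had the lower ratio in both EPSCs, 0.320 and 0.279 against 0.364 and 0.313, and at *Socs3* in L-EPSCs, 0.0939 against 0.314. That *Socs3* value counts 0.339 kb at the start in L-EPSCs, since a second peak just past the 1 kb limit counted as distal. The region holding both peaks, chr11:117827689-117831297, had 3609, 1435 and 863 bp under peaks in the 3 states. In the whole lists, peaks within 1 kb of any coding start had ratios of 0.534 and 0.383, and all others 0.389 and 0.307. With RefSeq starts of the 7 genes counted as well, their ratios were 0.530 and 0.387 at the starts and 0.267 and 0.258 elsewhere. Distal peaks numbered 84, 32 and 30 in ESCs, D-EPSCs and L-EPSCs, with mean widths of 2.34, 1.70 and 1.75 kb.

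Peaks of the 3 states were joined into union regions to see where each mark was shared, and regions here and above are given whole, also where they reach past the edge of a window. Of the 93 H3K27ac regions, 60 (64.5%) had a peak in ESCs only and 21 (22.6%) in all 3 states, against 53.6% and 21.3% of all H3K27ac regions. The ESC-only share depended on list length: it was 43.1% with lists of equal length and 6.90% with lists of equal covered bases, against 25.9% and 1.17% of all regions. By GENCODE starts, all 60 ESC-only regions were distal. Among them, chr17:29630550-29630779 lay 520 bp from the downstream RefSeq start of *Pim1*. None of the 93 had a peak in both EPSCs without ESCs, 3 had one in D-EPSCs only and 1 in L-EPSCs only. The corresponding shares of all H3K27ac regions were 2.35%, 6.03% and 2.77%. The ESC-only regions were narrow, with a median of 787 bp, against 5239 bp for those of all 3 states. All regions of the genome also differed this way, with 34.2 Mb in 37735 ESC-only regions and 61.7 Mb in 14972 of all 3 states. *Lifr* held 16 of the 60, *Pim1* 12, *Stat3* and *Socs3* 10 each, *Il6st* 9, *Gbx2* 2 and *Jak1* 1. Of the 120 H3K4me1 regions, 75 (62.5%) were shared by the 3 states and 19 (15.8%) were found in ESCs only, against 52.7% and 14.5% of all H3K4me1 regions.

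H3K4me1 was then read at the ESC-only acetylated regions, where its shares were near those of all such regions. Of the 60, 54, 41 and 42 had an H3K4me1 peak in ESCs, D-EPSCs and L-EPSCs, and 36 had it in both EPSCs. The corresponding shares of all 37735 ESC-only regions were 82.2%, 64.2%, 60.9% and 54.0%. In no state was H3K4me1 listed at 6 of the 60, against 14.5% of all ESC-only regions. Among the 6 was a region of 1314 bp within *Il6st*, chr13:113294107-113295420, which was named after its values were seen.

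Other genes of the pathway were examined from a list of 42: ligands and receptors, kinases with adaptors and STATs, inhibitors, and LIF-STAT3 targets. H3K27ac was at least 2-fold lower at 31 (D-EPSCs) and 37 (L-EPSCs) of the 40 genes with at least 1 kb in a state, and higher at 0 in both, against the 62.9% and 80.9% of all windows given above. The median ratios were 0.295 and 0.216. All 10 kinases, adaptors and STATs with enough coverage were lower in both EPSCs. Among them, *Stat5a* and *Stat5b* are neighbours whose windows overlap each other and that of *Stat3*. Ligands and receptors were lower at 5 of 8 in D-EPSCs and 7 of 8 in L-EPSCs, inhibitors at 7 and 8 of 9, and targets at 9 and 12 of 13. H3K4me1 was lower at 2 (D-EPSCs) and 6 (L-EPSCs) of 42 genes, and higher at 0, beside the shares of all windows given for the 7 genes.

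Among the 38 genes with at least 5 kb of H3K27ac, the lowest ratios in D-EPSCs were those of *Il6ra*, the interleukin-6 receptor, with 60.4 kb in ESCs and 2.15 kb in D-EPSCs, of *Stat5a* with 9.99 and 0.536 kb, and of *Stat6* with 37.9 and 2.40 kb. The highest were at *Lif*, the ligand itself, with 15.6 and 17.9 kb, at *Socs2* with 16.3 and 18.7 kb, and at *Osm*, encoding the related cytokine oncostatin M, with 15.2 and 13.5 kb. *Lif* and *Osm* are neighbours on chromosome 11 and share part of their windows. In L-EPSCs *Lif* had 4.42 kb, a ratio over D-EPSCs of 0.246, and it had H3K27ac at its start in ESCs and D-EPSCs but not in L-EPSCs. The lowest ratios in L-EPSCs were at *Ctf1*, encoding cardiotrophin 1, with 24.8 kb in ESCs and 0.800 kb in L-EPSCs, at *Stat5a* with 0.374 kb and at *Jak2* with 6.27 and 0.279 kb. The highest were at *Socs2* with 11.1 kb in L-EPSCs, at *Cntfr*, a ciliary neurotrophic factor receptor, with 5.52 kb in ESCs and 3.28 kb in L-EPSCs, and at *Mcl1*, an anti-apoptotic gene, with 58.5 and 33.4 kb.

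Finally, the gene with the most similar coverage over the 6 lists was found for each pathway gene, by Euclidean distance between log2(kb + 1) values. *Pim1* was nearest to *Zscan2* at a distance of 0.0664, *Lifr* to *Ehd1* at 0.190 and *Il6st* to *Inppl1* at 0.207. *Jak1* was nearest to *Abca14* at 0.281, *Socs3* to *Myh9* at 0.294, *Stat3* to *Vapa* at 0.322 and *Gbx2* to *Cul9* at 0.392. The H3K27ac coverage of *Zscan2*, for example, was 52.1, 10.7 and 9.78 kb in ESCs, D-EPSCs and L-EPSCs.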

How the data were processed

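The authors profiled H3K4me1 and H3K27ac by ChIP-seq in 12 ChIP samples, 2 for each of 6 lists, and 3 inputs. The authors trimmed 150 bp paired-end reads (Trim Galore 0.6.3), aligned them to mm9 with bowtie2 (version 2.3.5) and called broad peaks against input with MACS. The deposited values are peak positions (chromosome, start, end and name), with no count, score or other signal, in 1 list per state and mark. Peak thresholds and pooling of replicates are not given in the sources used here, and both affect list length.

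Bases under peaks were summed in gene windows (GENCODE M1). A ratio needed at least 1 kb in 1 state, and at least 2-fold was called. With 1 list per state and mark no test was run. No peak passed a chromosome end of NCBIM37. RefSeq promoters were placed on mm9 by exact match (93.9% placed, within 5 Mb). Members and lists were chosen with earlier results of these data known. Named were all 7 genes, their nearest genes by coverage, the 3 lowest and 3 highest pathway genes by H3K27ac ratio over ESCs, each gene's widest H3K27ac region and those of at least 2 kb in ESCs only or EPSCs only (none of the latter); other regions and *Lif* in L-EPSCs were chosen after their values were seen. Alternatives were windows of 10 and 100 kb, 1.5-fold and 3-fold, peak numbers, peaks of at least 500 bp, the widest 50%, joining over 1 kb, equal list length or bases, other start site widths and transcripts. The code was tested on simulated data. Python 3.11.15, numpy 2.4.6 and matplotlib 3.10.9 were used.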

Additional observations from a re-analysis of the deposited data

Results flagged for a closer look

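H3K4me1 coverage moved in opposite directions in the EPSCs at 2 of the 7 genes. At *Jak1* the ratio over ESCs was 0.751 in D-EPSCs but 1.04 in L-EPSCs. At *Gbx2* it was 1.05 in D-EPSCs but 0.935 in L-EPSCs. Over all windows, 18.0% had such opposite moves. At *Jak1* both EPSCs were lower with a window of 10 kb (0.453 and 0.683) and with peaks joined over 1 kb (0.716 and 0.988), both were higher with lists of equal covered bases (3.47 and 5.64), and numbers of peaks gave 0.615 and 1. At *Gbx2* both were higher with equal covered bases (1.2 and 1.1) and lower with numbers of peaks (0.941 and 0.882). With 1 list per state and mark, the difference was not tested.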

How the results depend on the processing

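Of 208 alternative values of the main summaries, 187 stayed within 1.5 times the reported value (for shares of regions, within its 95% binomial interval), and 0 reversed. *Stat3* is outside this count because it had no finite ratio under equal covered bases: its H3K27ac, at least 2-fold lower in both EPSCs with the lists as deposited, was then higher in both, with 0 kb left in ESCs against 2.78 kb (D-EPSCs) and 4.09 kb (L-EPSCs). Median ratios of L-EPSCs over D-EPSCs, which were not called, did cross 1: for H3K27ac from 0.881 to 1.09 with equal covered bases, and for H3K4me1 from 0.901 to 1.04 with numbers of peaks. For genes at least 2-fold lower in H3K27ac, lists of equal covered bases gave 2 in D-EPSCs and 2 in L-EPSCs, and 1 and 2 higher, against 15.1% and 15.3% of all windows lower and 58.3% and 55.7% higher, with median ratios of 0.559 and 0.590 and 1 gene higher in L-EPSCs than D-EPSCs. For H3K4me1 they gave 1 gene higher in each EPSC. This is *Jak1*, whose shortened ESC list held 1.93 kb. Numbers of peaks gave a median H3K27ac ratio of 0.471 in D-EPSCs and 1 gene lower in L-EPSCs than D-EPSCs. A window of 10 kb gave 1 gene with lower H3K4me1 in D-EPSCs (*Jak1*, 0.453), and a 1.5-fold limit gave 1 in L-EPSCs (*Stat3*). For numbers of peaks, the window of 10 kb and the 1.5-fold limit, no share of all windows is given. Whether these gene counts differ from all windows therefore cannot be read. The share of H3K27ac regions with a peak in ESCs only was 81.7% when at least 50% of a region had to be covered. It was 43.1% with lists of equal length and 6.90% with equal covered bases, against 25.9% and 1.17% of all regions. The share in all 3 was 8.60% with at least 50% covered and 35.3% with equal length. No share over all regions is given beside the other shares of regions in this section. For H3K4me1, ESC-only regions were 4.12% with equal covered bases, and those of all 3 were 46.4% with equal bases and 38.3% with at least 50% covered. The cause was not tested. RefSeq start sites, chosen after seeing the data, gave 6, 7 and 5 genes with H3K27ac at a start in ESCs, D-EPSCs and L-EPSCs, and 7 with H3K4me1 in each state.

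No paired analysis was possible because the peak lists carry no replicate numbers. No replicate was left out, since each state and mark has 1 list. Read depth is unknown, and an absent peak means only that none was called.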
